A study of Mus musculus with 24 samples.

Results

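The Akr1c genes are a tandem family on mouse chromosome 13, and 8 of its members are described here across 24 bone marrow RNA-seq libraries: Akr1c13, Akr1c12, Akr1c19, Akr1c14, Akr1c18, Akr1c6, Akr1c20 and Akr1c21, of 55414 genes in the files. Akr1c13 was chosen by its lower level in Srcap mutant than in WT stem and progenitor cells, and the other members were taken as its neighbours. Its genotype values in those cells are therefore a description without a test, and the question is whether the neighbours follow it. In the GRCm39 coordinates of the files the members span 4099011 to 4636540 on chromosome 13, about 538 kb.

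The study, per its title, concerns Srcap mutation in clonal hematopoiesis and DNA repair. The Srcap protein is a chromatin remodeller that deposits the histone variant H2A.Z. Each of the 12 groups held 2 libraries from C57BL6/J mice. Hematopoietic stem and progenitor cells (HSPCs) came from Srcap mutant and WT mice under 4 conditions. These were untreated (labelled germline), 12 hours after intraperitoneal doxorubicin, 2 weeks after transplantation and 20 weeks after competitive transplantation, with CD45.2+ donor cells taken. B cells and cells labelled T cells came from mutant and WT bone marrow at 2 weeks. The file headers call the mutants het, except at 2 weeks, where they write Mut; nothing else on the allele is given in the labels, and the protocol names 30000 sorted HSPCs for every library. Each library is called an independent sample, without a statement that it is a separate animal, so p-values measure the spread between these samples.

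Aldo-keto reductases of the 1C group are small soluble enzymes that use a nicotinamide cofactor to interconvert carbonyls and alcohols on steroids, prostaglandins and xenobiotics. Rodents carry several such genes side by side, many with tissue-restricted expression in liver, kidney, stomach or ovary, where they inactivate or activate steroid hormones. In humans, enzymes of this family and carbonyl reductases also reduce the anthracycline doxorubicin to its alcohol.

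The promoters of the closest relatives, as windows of 300 bases that end just after the RefSeq start, were compared because Akr1c12 is the member nearest to Akr1c13 in sequence. RefSeq gives a promoter for 7 of the 8 members, and its coordinates are in GRCm38.p6, not in the build of the files. In the first pair, capitals mark the 16 letters in each sequence that differ from the other or have no partner in it. Akr1c13 lies on the plus strand at chr13:4190937-4191236 and Akr1c12 on the minus strand at chr13:4279350-4279649.
Akr1c13: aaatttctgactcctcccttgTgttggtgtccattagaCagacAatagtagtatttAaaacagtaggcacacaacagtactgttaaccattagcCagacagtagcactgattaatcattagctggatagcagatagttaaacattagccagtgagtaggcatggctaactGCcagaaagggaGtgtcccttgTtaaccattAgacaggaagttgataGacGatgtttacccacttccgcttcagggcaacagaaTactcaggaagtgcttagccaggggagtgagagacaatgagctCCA
Akr1c12: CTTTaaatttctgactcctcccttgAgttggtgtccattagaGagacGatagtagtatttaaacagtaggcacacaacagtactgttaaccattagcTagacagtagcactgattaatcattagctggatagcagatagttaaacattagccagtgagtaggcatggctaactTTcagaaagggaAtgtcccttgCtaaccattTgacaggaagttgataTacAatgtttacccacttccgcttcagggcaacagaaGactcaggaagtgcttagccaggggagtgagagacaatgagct
Their promoters were 93.4% identical over the alignment, gaps included. Akr1c13 and Akr1c19 promoters were 59.8% identical, and no other pair with Akr1c13 exceeded 52.2%. The full transcripts of Akr1c13 and Akr1c12, 1262 and 1261 bases, were 94.4% identical. Of the 50-base windows of the Akr1c13 transcript, 28.6% occurred unchanged in Akr1c12, and of 150-base windows 7.10%, so a part of the fragments of either gene may match both. Multi-mapping fragments were not counted per the file headers, and what was lost or placed with the wrong partner cannot be read from the counts.

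Akr1c19 is shown because it was the promoter among the 7 with matches to 3 of the 4 motifs searched on both strands. Its capitals mark those matches, at chr13:4233490-4233789 on the plus strand.
Akr1c19: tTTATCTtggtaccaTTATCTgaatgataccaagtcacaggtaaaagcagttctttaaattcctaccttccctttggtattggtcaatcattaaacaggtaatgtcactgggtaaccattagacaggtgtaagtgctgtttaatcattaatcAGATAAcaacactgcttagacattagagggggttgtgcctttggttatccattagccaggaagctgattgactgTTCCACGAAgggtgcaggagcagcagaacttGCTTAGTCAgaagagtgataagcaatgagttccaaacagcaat
The antioxidant response element core TGACNNNGC matched once, on the minus strand, and is present in 12.5% of 27025 promoters. The STAT site TTCNNNGAA matched once and is present in 8.47%. The GATA site AGATAA matched 3 times and is present in 11.4%. None of the matches overlap. The TATA box letters TATAAA, present in 14.2% of promoters, occurred in Akr1c6 and in no other of the 7 windows. The windows of Akr1c13 and Akr1c12 held none of the 4 letter strings.

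Total counts per library ran from 26.4 to 78.4 in units of 1e6, and a CPM is a gene's count divided by that number. Srcap was at 2.83 to 13.7 CPM in mutant and 6.11 to 14.4 CPM in WT HSPCs; counts per gene do not show the mutation itself. The stem and progenitor marker Kit ran between 311 and 601 CPM over HSPCs, and the B cell gene Cd79a between 1033 and 1352 CPM over B cells. In B cell libraries 8 B cell markers summed to 8162 and 9288 CPM in mutant and 6911 and 8145 CPM in WT. There 10 erythroid markers summed to 11429 and 6143 CPM in mutant and 16211 and 9393 CPM in WT. Libraries labelled T cells had the T cell receptor gene Cd3e at 0.0883 to 1.56 CPM. The T cell gene Cd3d went the other way, at 7.44 to 8.76 CPM, against at most 6.66 CPM in B cells and 2.49 CPM in HSPCs. The 9 T cell markers summed to 21.7 to 32.4 CPM there, against at least 192 CPM in B cells and 56.6 CPM in HSPCs. In them 10 neutrophil markers summed to 151194 and 160645 CPM in mutant and 139309 and 144070 CPM in WT libraries. The label goes against the T cell sum and the neutrophil markers, and these libraries are called libraries labelled T cells throughout. WT untreated HSPC replicate 1 also stood apart, with 23921 CPM summed over the neutrophil markers. All 2-week libraries carried the female transcript Xist, at 320 CPM or more, the other HSPC libraries at most 0.484 CPM. The headers place untreated and doxorubicin HSPCs, all 2-week libraries, and 20-week HSPCs in 3 directories.

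Of the 8 members, 5 had any count. Akr1c13 held 25551 counts over all libraries, Akr1c12 2776, Akr1c19 431, Akr1c14 207 and Akr1c18 51. Akr1c6, known as a liver 17beta-hydroxysteroid dehydrogenase, Akr1c20 and Akr1c21, a kidney hydroxysteroid dehydrogenase, had 0 counts in all 24 libraries. A count of 0 allows up to 0.00255 CPM over all libraries together and between 0.0382 and 0.114 CPM in a single library, for counting error only. Per kilobase of annotated exon, the median level in the 16 HSPC libraries was 21.6 CPM per kb for Akr1c13, 2.24 for Akr1c12, 0.0590 for Akr1c19 and 0.0258 for Akr1c14. Akr1c18 had no count in any HSPC or B cell library. A filter on low counts left 4 members in the HSPC fit and 3 in the fit of B cells and libraries labelled T cells.

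**Figure D1:**
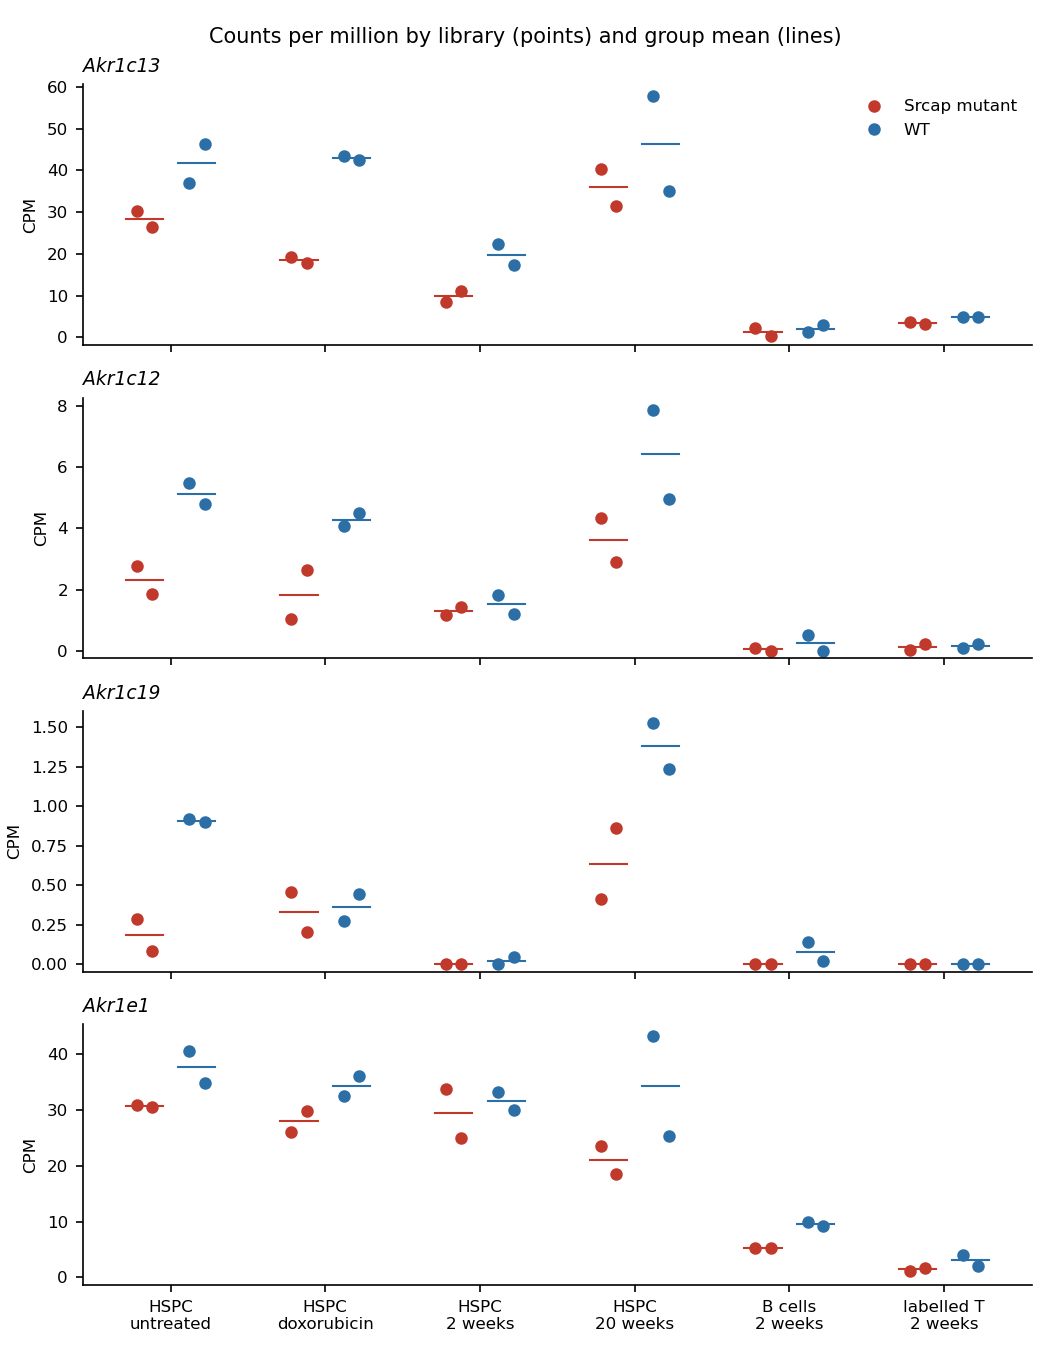
CPM (y axis, linear, each panel on its own scale) in each library (points) with group means (lines) for Akr1c13, Akr1c12, Akr1c19 and the neighbour Akr1e1, by cell label and condition, Srcap mutant left of WT. The group means of Akr1c13 and Akr1c12 are lowest in mutant HSPCs at 2 weeks among the HSPC groups and lower again in B cells, while Akr1e1 stays between 18.6 and 43.2 CPM in every HSPC library.

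Akr1c13 (ENSMUSG00000021213, chr13:4241149-4255595, plus strand), an enzyme that oxidizes and reduces steroid and other small alcohols and ketones, had the most counts of all members in each of the 24 libraries. In untreated HSPCs it was at 30.4 and 26.5 CPM in mutant and 37.1 and 46.4 CPM in WT libraries. After doxorubicin it was at 19.4 and 17.9 CPM in mutant and 43.4 and 42.5 CPM in WT libraries. At 2 weeks it was at 8.50 and 11.2 CPM in mutant and 22.4 and 17.3 CPM in WT libraries. In these 3 conditions both mutant libraries lay below both WT libraries. At 20 weeks the genotypes overlapped, at 40.4 and 31.6 CPM in mutant and 57.7 and 35.2 CPM in WT libraries. The fitted log2 changes of mutant over WT were -0.57 ± 0.20 untreated, -1.26 ± 0.20 after doxorubicin, -0.98 ± 0.20 at 2 weeks and -0.38 ± 0.20 at 20 weeks (SE), with a mean of -0.80 ± 0.10. At 20 weeks the change was -0.11 without WT replicate 1 and -0.64 without WT replicate 2.

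The 12 groups were ordered by their mean level of Akr1c13. The highest mean was 46.4 CPM in WT 20-week HSPCs, between 35.2 and 57.7 CPM, followed by 42.9 ± 0.605 CPM in WT doxorubicin and 41.7 ± 6.57 CPM in WT untreated HSPCs (SD, n = 2 each). The mutant 20-week mean followed at 36.0 ± 6.26 CPM, and each of these 4 groups overlapped its neighbour in the order. Mutant untreated HSPCs came next at 28.5 ± 2.72 CPM and did not overlap either neighbour. WT 2-week HSPCs, at 19.8 ± 3.58 CPM, overlapped mutant doxorubicin HSPCs, at 18.6 ± 1.04 CPM. Mutant 2-week HSPCs, at 9.84 ± 1.90 CPM, were the lowest HSPC group and stood apart. The libraries labelled T cells, at 3.49 ± 0.353 CPM in mutant and 4.91 ± 0.146 CPM in WT, lay above the B cells, at 1.35 ± 1.39 CPM in mutant and 2.11 ± 1.10 CPM in WT.

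Akr1c12 (ENSMUSG00000021211, chr13:4318175-4329432, minus strand), a close copy of Akr1c13 with similar substrates, was lower in mutant HSPCs on average but did not pass the test over all genes. In untreated HSPCs it was at 2.76 and 1.85 CPM in mutant and 5.48 and 4.80 CPM in WT libraries. After doxorubicin it was at 1.05 and 2.62 CPM in mutant and 4.07 and 4.49 CPM in WT libraries. At 20 weeks it was at 4.34 and 2.89 CPM in mutant and 7.88 and 4.97 CPM in WT libraries. The mutant libraries lay below the WT libraries in these 3 conditions. At 2 weeks the genotypes overlapped, at 1.17 and 1.44 CPM in mutant and 1.83 and 1.22 CPM in WT libraries. The pair of genes thus overlapped between genotypes in different conditions, Akr1c13 at 20 weeks and Akr1c12 at 2 weeks.

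By condition, the log2 change of Akr1c12 was -1.18 ± 0.47 untreated, -1.28 ± 0.47 after doxorubicin, -0.19 ± 0.48 at 2 weeks and -0.85 ± 0.46 at 20 weeks. Leaving out mutant replicate 1 put the doxorubicin value at -0.78, and leaving out mutant replicate 2 put it at -2.07. The mean over the 4 conditions was -0.88 ± 0.23, with an adjusted p = 0.163 in edgeR's quasi-likelihood test. DESeq2 gave an adjusted p = 0.0187 for this mean, and edgeR without a filter on low counts 0.0494. Without WT untreated replicate 1, the library high in neutrophil markers, the mean was -0.85 with an edgeR adjusted p = 0.299. The genotype effect at 2 weeks differed from that in untreated HSPCs by 0.99 ± 0.67 with an edgeR adjusted p = 0.787, so a difference between the conditions was not shown.

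**Figure D2:**
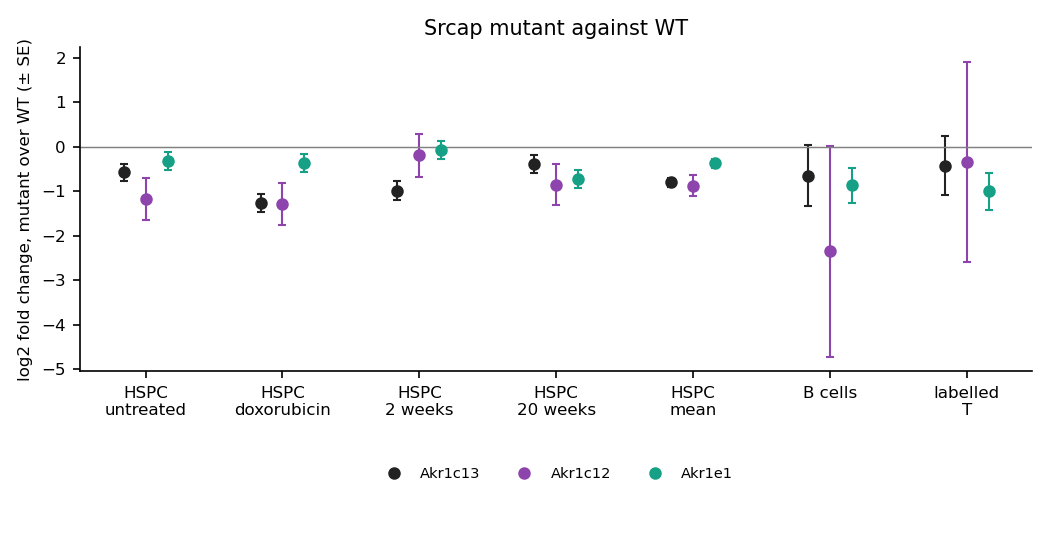
Fitted log2 fold change of mutant over WT with its SE (y axis) for Akr1c13, Akr1c12 and the neighbour Akr1e1 in each HSPC condition, in their mean, in B cells and in libraries labelled T cells (x axis). All plotted values are below 0, from -0.06 for Akr1e1 in HSPCs at 2 weeks to -2.35 for Akr1c12 in B cells, and the errors of Akr1c12 outside HSPCs reach past 0.

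Akr1c19 (ENSMUSG00000071551, chr13:4278699-4302842, plus strand), a reductase of steroid and xenobiotic ketones, lies between Akr1c13 and Akr1c12 on the chromosome. It had 15 and 3 counts in mutant and 35 and 32 in WT untreated HSPCs. After doxorubicin it had 24 and 12 counts in mutant and 10 and 18 in WT libraries, which overlap. At 20 weeks it had 29 and 45 counts in mutant and 101 and 97 in WT libraries. At 2 weeks the mutant libraries had 0 counts and the WT libraries 0 and 2. Both mutant libraries thus lay below both WT libraries in the untreated and 20-week HSPCs. Summed over HSPC libraries, the 128 mutant and 295 WT counts gave 0.320 and 0.787 CPM, a ratio of 0.406 with a 95% interval of 0.327 to 0.501 that covers counting error only. Of these, 74 mutant and 198 WT counts came from 20 weeks. The edgeR test of the mean over conditions gave an adjusted p = 0.429.

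Akr1c14 (ENSMUSG00000033715, chr13:4099011-4140688, plus strand) is the rodent 3alpha-hydroxysteroid dehydrogenase, which inactivates several steroid hormones. Its counts were uneven within groups: 32 and 4 in mutant and 2 and 20 in WT untreated HSPCs, and 3 and 3 in mutant and 12 and 0 in WT HSPCs after doxorubicin. At 20 weeks it had 0 and 11 counts in mutant and 65 and 49 in WT libraries, and at 2 weeks 0 in both mutant and 1 and 5 in the WT libraries. The groups overlapped untreated and after doxorubicin and did not at 2 and 20 weeks. At 2 weeks this rested on 1 and 5 WT counts, of which the 1 is under the 3 counts used as the limit for 0. The sums of 53 mutant and 154 WT counts gave a ratio of 0.322, with an interval of 0.231 to 0.443 for counting error only, and 114 of the WT counts came from 20 weeks. The edgeR adjusted p of the mean was 0.510.

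None of the 3 members other than Akr1c13 in the HSPC fit passed an adjusted p of 0.05 in any HSPC genotype comparison in the filtered edgeR fit, while DESeq2 and edgeR without a filter each called 1, Akr1c12 in the mean. In the filtered edgeR fit 0% of 19522 genes passed untreated, 0.0154% after doxorubicin, 0.138% at 2 weeks, 0.00512% at 20 weeks and 0.133% in the mean. At an unadjusted p under 0.05 there were 1, 1, 0, 0 and 2 of the 3, against 4.82%, 9.79%, 8.76%, 3.80% and 9.88% of genes. The 3 members passed the filter through the groups where they were high, so their number says nothing of the family as a whole. Both mutant libraries lay below both WT libraries in 3 of 4 conditions for Akr1c12, as for 2.52% of the genes in at least 3 conditions. Akr1c13 did so in 3 of 4 too, which is a description only, since it was chosen by its level in these libraries. Akr1c19 and Akr1c14 did so in 2 of 4, for which the share over all genes was not counted. For Akr1c14 the 2-week condition is near 0 counts. By condition, 15.2% of genes did so untreated, 17.5% after doxorubicin, 20.4% at 2 weeks and 11.6% at 20 weeks. The tests of whether the genotype effect differed between treated and untreated HSPCs called 0 of the 3 members and 0% of all genes, with 0 of the 3 members at an unadjusted p under 0.05, against 2.82% of genes for doxorubicin, 7.34% for 2 weeks and 4.66% for 20 weeks.

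Marker genes of HSPCs had fitted values on the same side as Akr1c13. All 7, Kit, Cd34, Ly6a, Flt3, Gata2, Meis1 and Hlf, had a fitted mean log2 change below 0. Their median was -0.23 against -0.01 over all genes. An unadjusted p under 0.05 was reached by 5 of the 7, against 9.88% of genes, though none passed after adjustment. Their summed level ran from 1167 to 3442 CPM in mutant and 1508 to 3513 CPM in WT HSPC libraries. In doxorubicin HSPCs it was 2641 and 2496 CPM in mutant and 3513 and 3371 CPM in WT libraries. B cell markers lay on the other side, with 7 of 8 above 0, a median of 0.39 and none called. At an unadjusted p under 0.05 there were 6 of these 8, against 9.88% of genes. Their sum ran from 734 to 1791 CPM in mutant and 397 to 1438 CPM in WT HSPC libraries. At 2 weeks 7 of 8 were above 0 with a median of 0.94, and none was called. An unadjusted p under 0.05 was reached by 7 of them, against 8.76% of genes. In the mean, neutrophil markers were below 0 in 10 of 10, megakaryocyte markers in 7 of 7 and monocyte markers in 6 of 8. So were erythroid markers in 7 of 10, eosinophil markers in 5 of 7 and mast cell and basophil markers in 5 of 9. T cell markers were above 0 in 8 of 9, and none of these lists had a call. By condition, neutrophil markers were below 0 in 10 of 10 untreated, with a median of -6.26, where WT replicate 1 stood apart. After doxorubicin 6 of 10 were below 0, while 9 of 10 were above 0 at 2 weeks and again at 20 weeks. Monocyte markers were below 0 in 7 of 8 untreated and 5 of 8 at 20 weeks. They were above 0 in 5 of 8 after doxorubicin and 6 of 8 at 2 weeks. The part of these markers in the Akr1c values was not tested, and in bulk RNA fewer cells of a type and less RNA per cell cannot be told apart.

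In B cells Akr1c13 was at 2.33 and 0.368 CPM in mutant and 1.34 and 2.89 CPM in WT libraries, with a log2 change of -0.65 ± 0.69 and an edgeR adjusted p = 0.821. Akr1c12 had 5 and 0 counts in mutant and 26 and 0 in WT B cell libraries. In libraries labelled T cells Akr1c13 was at 3.74 and 3.24 CPM in mutant and 4.81 and 5.02 CPM in WT libraries, which do not overlap, with a log2 change of -0.43 ± 0.67 and an edgeR adjusted p = 0.970. Akr1c12 had 2 and 12 counts in mutant and 5 and 9 in WT libraries there. The edgeR tests called neither gene, against 0.641% of 17484 genes called in B cells and 0.0114% in libraries labelled T cells, and neither had an unadjusted p under 0.05, against 11.0% and 5.72% of genes. DESeq2 gave no adjusted p for Akr1c12 in B cells and called neither gene elsewhere. Both mutant libraries lay below both WT libraries for 20.8% of genes in B cells and 24.0% in libraries labelled T cells.

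Akr1c18 (ENSMUSG00000021214, chr13:4182614-4200653, minus strand) is the 20alpha-hydroxysteroid dehydrogenase that inactivates progesterone, best known from the ovary at the end of pregnancy. It had 24 and 26 counts in mutant and 0 and 1 in WT libraries labelled T cells, and no count in the other 20 libraries. The mutant libraries were thus at 0.424 and 0.454 CPM and stood apart from the WT libraries. Over the group sums of 50 and 1 counts the ratio was 38.5, with a 95% interval of 6.59 to 1549 for counting error only. The edgeR test gave an adjusted p = 0.835. The gene passed the filter on low counts only through this group.

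The members were also compared between HSPC conditions, averaged over genotypes. Doxorubicin against untreated called 0 of 4 members, against 0.0154% of genes, with 0 at an unadjusted p under 0.05, against 5.96% of genes, and a log2 change of -0.26 ± 0.14 for Akr1c13. At 2 weeks all 4 tested members were called lower than in untreated HSPCs, against 24.9% of genes called lower and 46.1% called in either direction. Akr1c14 and Akr1c19 passed the filter on low counts only through HSPC groups other than those at 2 weeks. For them a call could hardly be other than lower, so the 4 of 4 says nothing of the family as a whole. The log2 change of Akr1c13 was -1.22 ± 0.14 with an edgeR adjusted p = 1.51e-06, and that of Akr1c12 was -1.21 ± 0.34 with an edgeR adjusted p = 0.00629. The median over all genes in this comparison was -0.14, and both changes are far below it. Akr1c19 had 2 counts over the 4 2-week libraries and 85 over the 4 untreated ones, a ratio of 0.0246 with an interval of 0.00293 to 0.0916 for counting error only, and an edgeR adjusted p = 0.000793. Akr1c14 had 6 and 58 counts, a ratio of 0.108 with an interval of 0.0381 to 0.250, and an edgeR adjusted p = 0.0432. The call of Akr1c14 was lost when any of 6 of the 8 libraries was left out: either 2-week mutant library, either 2-week WT library, mutant untreated replicate 1 or WT untreated replicate 2, at an adjusted p between 0.0685 and 0.189.

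The fall at 2 weeks went with other differences between these libraries. Erythroid markers were called higher in 10 of 10, mast cell and basophil markers in 7 of 9, megakaryocyte markers in 5 of 7 and monocyte markers in 5 of 8. HSPC markers were called lower in 6 of 7 and higher in 1, with a median log2 change of -1.61. B cell markers were called lower in 6 of 8 and T cell markers in 4 of 9. Eosinophil markers were called higher in 2 of 7 and lower in 1, and no neutrophil marker was called. Over all genes 21.2% were called higher and 24.9% lower. The RNA of the 2-week libraries was female by Xist and that of the untreated ones male by Ddx3y, and the labels give no sex. Only the 2-week cells of this comparison came after transplantation, and the files lie in separate header directories. Time, transplantation, sex and directory thus cannot be told apart. NRF2 targets, the antioxidant and detoxification genes among which human AKR1C genes are counted, had 19 of 33 called higher, against 21.2% of genes, and 4 lower, with a median of 0.49.

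At 20 weeks Akr1c13 was higher than in untreated HSPCs, by 0.59 ± 0.14 on the log2 scale with an edgeR adjusted p = 0.00500, 1 of 4 members called, against 13.1% of genes called higher and 23.6% in either direction. Akr1c12 was at 0.83 ± 0.33 with an edgeR adjusted p = 0.0740 and passed with DESeq2, at 0.0464, and when the fit held these groups only, at 0.0443. Akr1c19 had 29 and 45 counts in mutant and 101 and 97 in WT 20-week libraries, a higher CPM than untreated libraries of the same genotype, with an edgeR adjusted p = 0.166. Antibody genes with Jchain made up between 16.9% and 26.7% of 20-week counts, and without them Akr1c13 was still called. Of the NRF2 targets, 15 of 33 were called higher and 2 lower at 20 weeks, with a median of 0.41. These libraries also form a header directory of their own, which cannot be told apart from time or transplantation.

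**Figure D3:**
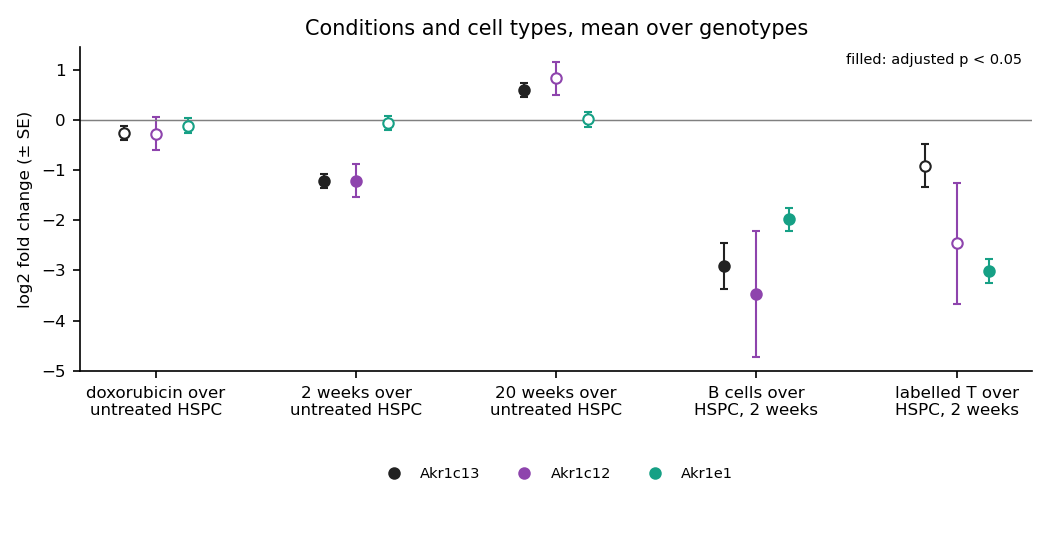
Fitted log2 fold change with its SE (y axis), averaged over genotypes, of Akr1c13, Akr1c12 and Akr1e1 for HSPC conditions over untreated HSPCs and for B cells and libraries labelled T cells over HSPCs at 2 weeks (x axis), with filled points at an adjusted p under 0.05. Akr1c13 and Akr1c12 have the same sign in each of the 5 comparisons, at -1.22 and -1.21 at 2 weeks, while Akr1e1 is at -0.12, -0.07 and 0.01 over the HSPC conditions.

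B cells held far less of both main members than HSPCs at the same 2 weeks. Akr1c13 differed by -2.92 ± 0.46 on the log2 scale with an edgeR adjusted p = 0.000127, with all 4 B cell libraries below all 4 HSPC libraries. Akr1c12 had 5, 0, 26 and 0 counts in B cell and 58, 38, 64 and 54 in HSPC libraries, with an edgeR adjusted p = 0.0313. The call of Akr1c12 was lost without mutant B replicate 2, WT B replicate 2 or either WT HSPC library, at an adjusted p between 0.0536 and 0.0903, which left 1 member called. In this comparison 25.5% of genes were called lower and 53.9% in either direction. Akr1c18, with 0 counts in both cell types, could not be called.

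In libraries labelled T cells Akr1c13 stood between B cells and HSPCs, below all 4 HSPC libraries in CPM. The fitted log2 change against HSPCs was -0.91 ± 0.42 with an edgeR adjusted p = 0.0801. The scaling factors of these libraries were 0.666 to 0.733 against 1.22 to 1.29 in the 2-week HSPCs, so the scaled difference is smaller than that in CPM. The edgeR test called neither Akr1c13 nor Akr1c12, against 61.9% of all genes called, and neither had an unadjusted p under 0.05, against 65.2% of genes. Without a filter edgeR called both, DESeq2 called Akr1c13, and both were called when the fit held these groups only. Akr1c18, the other tested member, was at 5.39 ± 2.18 with an edgeR unadjusted p = 0.0336 and adjusted p = 0.0539. It passed the filter only through the mutant libraries labelled T cells, so its change could hardly be other than higher.

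Within 500 kb of the cluster and inside it lie 31 other genes, of which 11 were tested in HSPCs and none was called in any genotype comparison in the filtered edgeR fit. Akr1e1 was called in the mean without the filter. Their median log2 change in the mean over HSPC conditions was 0.02, with 5 of 11 below 0. The lowest were the calmodulin-like genes Calm5 at -3.51 ± 1.51 and Calm4 at -0.98 ± 0.82, chosen here after their values were seen and not called. No other gene inside the cluster interval had enough counts to be tested. The nearest tested neighbour on the low-coordinate side, Net1, an activator of the GTPase RhoA, had a mean log2 change of -0.01 ± 0.08 in mutant over WT HSPCs.

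Akr1e1 (ENSMUSG00000045410, chr13:4640749-4659173, minus strand), an aldo-keto reductase of another group that reduces 1,5-anhydrofructose, is the nearest tested neighbour on the high-coordinate side, starting 418 kb from the start of Akr1c13. It was at 30.9 and 30.5 CPM in mutant and 40.5 and 34.8 CPM in WT untreated HSPCs, and at 23.6 and 18.6 CPM in mutant and 43.2 and 25.4 CPM in WT HSPCs at 20 weeks. Both mutant libraries lay below both WT libraries untreated, after doxorubicin and at 20 weeks, and overlapped them at 2 weeks. The mean log2 change was -0.36 ± 0.10 with an edgeR adjusted p = 0.186, which was 0.0457 without a filter on low counts. In B cells it was at 5.35 and 5.19 CPM in mutant and 9.90 and 9.20 CPM in WT libraries, with a log2 change of -0.86 ± 0.39 and an edgeR adjusted p = 0.444. In libraries labelled T cells it was at 1.22 and 1.69 CPM in mutant and 4.02 and 2.08 CPM in WT libraries, with an edgeR adjusted p = 0.835. Akr1e1 was called in none of the comparisons of mutant with WT in the filtered edgeR fit. Its mutant libraries lay below its WT libraries in 3 of 4 HSPC conditions, as for 2.52% of genes in at least 3, and in B cells and libraries labelled T cells, as for 20.8% and 24.0%.

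**Figure D4:**
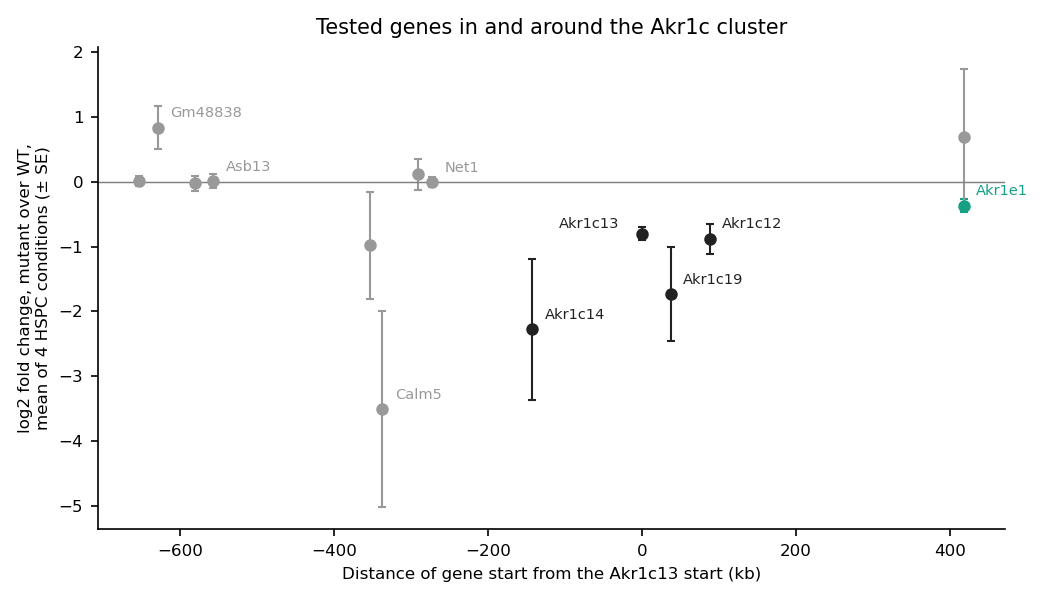
Mean log2 fold change of mutant over WT over 4 HSPC conditions, with its SE (y axis), against the distance of each tested gene's start from the start of Akr1c13 in kb (x axis), members in black, Akr1e1 in green and other genes in grey. The 4 members lie below 0, for which Akr1c13 was chosen. Errors are wide for Akr1c14 at -2.28 ± 1.09 and Akr1c19 at -1.73 ± 0.73. Akr1e1 at -0.36 and, also with wide errors, Calm4 and Calm5 lie below 0 too, while Net1 is at -0.01 and Asb13 at 0.02. Calml3 is left out because its SE exceeds the scale.

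The neighbours were compared across conditions in the same way. At 2 weeks against untreated, 3 of the 11 tested neighbours were called, against 46.1% of genes, all lower as Akr1c13 was: Asb13, a substrate adaptor of a ubiquitin ligase, at -1.06 ± 0.15, Fam208b at -0.77 ± 0.17 and the gene model Gm48838 at -1.27 ± 0.48. The call of Gm48838 was lost without mutant 2-week replicate 2, WT 2-week replicate 2 or any untreated library, at an edgeR adjusted p between 0.0721 and 0.165. At 20 weeks 1 of 11 was called, against 23.6% of genes: Fam208b, at -0.72 ± 0.17. Akr1e1 differed by -0.07 ± 0.14 at 2 weeks. In B cells against HSPCs 7 of 9 were called, against 53.9% of genes: Asb13 at 1.86, Gm48838 at 2.42, Fam208b at 0.65 and ENSMUSG00002075945 higher, and Akr1e1 at -1.98, Net1 at -0.32 and Calml3 lower. The B cell calls of 3 of these were lost when single libraries were left out: Net1 without mutant B replicate 1 or 2, WT B replicate 2, mutant HSPC replicate 1 or WT HSPC replicate 2, ENSMUSG00002075945 without any of the 8 but WT B replicate 1, and Calml3 without any B cell or WT HSPC library, at edgeR adjusted p-values up to 0.130. In libraries labelled T cells against HSPCs 5 of 9 were called, against 61.9% of genes, with Akr1e1 at -3.02, Net1 at -1.36 and Fam208b at -1.02 lower and Gdi2 at 0.33 and Gm48838 at 2.07 higher.

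**Figure D5:**
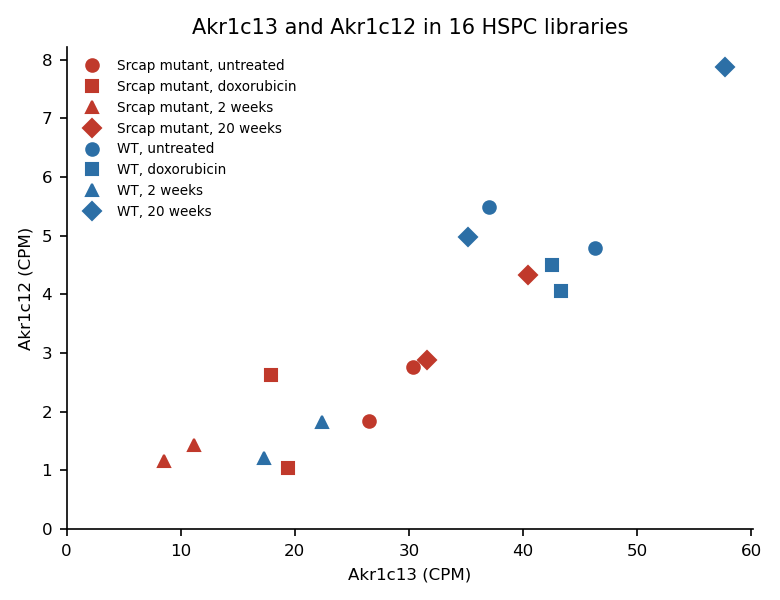
Akr1c12 (y axis) against Akr1c13 (x axis) in CPM over 16 HSPC libraries, coloured by genotype with a symbol per condition. Both genes are highest in WT 20-week replicate 1, at 57.7 CPM for Akr1c13 and 7.88 CPM for Akr1c12, while Akr1c13 is lowest in mutant 2-week replicate 1 at 8.50 CPM and Akr1c12 in mutant doxorubicin replicate 1 at 1.05 CPM.

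Per 100 Akr1c13 counts there were 5.41 to 14.7 Akr1c12 counts in mutant HSPC libraries, with a median of 9.94, and 7.02 to 14.8 in WT HSPC libraries, with a median of 10.5. Untreated, this ratio was 9.08 and 6.95 in mutant and 14.8 and 10.4 in WT libraries, and at 20 weeks 10.7 and 9.15 in mutant and 13.6 and 14.1 in WT libraries. At 2 weeks it was 13.7 and 12.9 in mutant and 8.18 and 7.02 in WT libraries. The mutant libraries were thus below the WT libraries untreated and at 20 weeks and above them at 2 weeks, with overlap after doxorubicin, and these differences were not tested. The Pearson correlation of Akr1c12 with Akr1c13 in log2(TMM CPM + 1) over the 16 HSPC libraries was 0.90, and 0.74 after the mean of each condition was subtracted, where the 95th percentile over 12248 genes was 0.80 and 0.60. The libraries share conditions, depth and, for these genes, similar sequence, so this is a description. For Akr1c19 the values were 0.78 and 0.37, for Akr1c14 0.62 and 0.35, and for Akr1e1 0.40 and 0.55.

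The genes most like Akr1c13 lay on other chromosomes. Over the 16 libraries these were Tceal8 at r = 0.94, Itm2b at 0.94, the myeloid gene Lst1 at 0.93, the kinase Camk1 at 0.93 and the keratin Krt18 at 0.93. With the condition means subtracted they were the organic cation transporter Slc22a3 at 0.96, the arsenic methyltransferase As3mt at 0.96, Armcx2 at 0.94, the ribosomal protein paralogue Rps4l at 0.93 and the progenitor marker Cd34 at 0.92. All 10 had a fitted mean log2 change below 0 in mutant over WT HSPCs, from -0.17 for Itm2b to -1.57 for Rps4l, and Akr1c13 itself was used to choose them.

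Pathways in which these enzymes act gave no call in the mean over HSPC conditions in the filtered edgeR fit, where 0.133% of genes passed, and some genes were called under alternatives. Of the other aldo-keto reductases 10 of 12 were tested, 7 below 0 with a median of -0.10, and Akr1b7 was at -1.61 ± 0.89 with an edgeR adjusted p = 0.586, and at -0.23 without WT 2-week replicate 1. Of the NRF2 targets 27 of 33 were below 0 in the mean, with a median of -0.15 against -0.01 over all genes. By condition, 27 of 33 were below 0 untreated and 24 of 33 after doxorubicin. At 2 weeks 17 of 33 were above 0, and at 20 weeks 19 of 33. In the mean Osgin1, an oxidative stress response gene, was at -0.77 ± 0.19 with an edgeR adjusted p = 0.140. Abcc1, a glutathione conjugate exporter, was at -0.26 ± 0.07 with an edgeR adjusted p = 0.197. DESeq2 called both, at adjusted p-values of 0.0154 for Osgin1 and 0.0437 for Abcc1, and edgeR without a filter called Osgin1, at 0.00945. Leaving out 1 library called Osgin1 (0.0236, without WT untreated replicate 2), Abcc1 (0.0294) and Bach1 (0.0406, both without mutant 20-week replicate 2), and Cyp11a1 (0.0366, without mutant 2-week replicate 2) in edgeR. The NRF2 regulators split 3 to 3, with Bach1, a repressor of NRF2 targets, at -0.25 ± 0.10 and Bach2 at 0.20 ± 0.10. Of the steroid genes 16 of 22 were below 0, with the progesterone receptor Pgr at 0.43 ± 0.16 and Cyp11a1, which makes pregnenolone from cholesterol, at -0.88 ± 0.34. Of the carbonyl and retinal metabolism genes 26 of 35 were below 0, with Dhrs1 at -0.19 ± 0.08 and Dhrs9 at -2.06 ± 0.79, and Dhrs9 was at -0.40 without WT untreated replicate 1. Dhrs9 had an edgeR adjusted p = 0.398, which was 0.000182 without a filter on low counts and 0.0132 without WT untreated replicate 2.

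Calls among these pathways came from B cells, where 0.641% of 17484 genes were called. Hpgd, which breaks down prostaglandins, fell by 2.25 ± 0.36 on the log2 scale in mutant B cells with an edgeR adjusted p = 0.0161, 1 of 20 tested prostaglandin genes called. In HSPCs it was at -0.49 ± 0.31, not called, and 14 of 22 prostaglandin genes were below 0. Csf2rb, the beta chain shared by the receptors for IL-3, IL-5 and GM-CSF, fell by 0.64 ± 0.10 in mutant B cells with an edgeR adjusted p = 0.0161, and Csf2rb2, the mouse beta chain specific to IL-3, by 0.78 ± 0.12 with 0.0150, 2 of 8 genes of that list. In HSPCs they were at -0.17 ± 0.14 and -0.36 ± 0.13, not called, within a list whose 8 genes were all below 0 with a median of -0.18. All 3 calls were lost in a fit of B cells alone and without mutant B replicate 2. Beside them, neutrophil markers in B cell libraries summed to 8766 and 3651 CPM in mutant and 8579 and 13146 CPM in WT. Of these markers 10 of 10 were below 0 and none was called, as for 10 of 10 erythroid markers. Of the monocyte markers 2 of 8 were called lower, against 0.641% of genes. The part of all these markers in the calls was not tested.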

How the data were processed

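RNA-seq libraries were made with a stranded mRNA kit per the labels' protocols. The deposited values are raw counts per gene, made with featureCounts 2.0.1 on paired, reverse-stranded reads over GENCODE M28 exons, per the file headers, with no option to count multi-mapping fragments. FastQC, STAR and the builds mm39 and mm10 are named in the submitters' processing notes; coordinates here are those of the files, GRCm39. Symbols were matched for 52081 of 55414 genes, holding 99.9% of counts.

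Counts were tested with edgeR 4.0.16 in R 4.3.3 (TMM scaling, a filter of at least 10 counts by group size and 15 in total, robust quasi-likelihood F test). One fit held the HSPC libraries (19522 genes), another B cells with libraries labelled T cells (17484), and another all 2-week libraries (19018), with 2 libraries a group. P-values were adjusted by Benjamini-Hochberg over all genes, and calls are at 0.05. Errors beside log2 changes are SEs. CPM values use the total count. Intervals of count ratios are exact 95% intervals, and limits for 0 use 3 counts; both cover counting error only. DESeq2 1.42.0, other scaling, no filter, leave-outs and a replicate block were alternatives. Promoters were aligned with Biopython 1.88. The procedure was tested on simulated data.

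The members, gene lists and tests were chosen with earlier results of these data known. Named list genes are those called in a genotype comparison or the pair with the smallest p in the mean over HSPC conditions. One gene of the HSPC marker list is not reported here, and the list's values leave it out.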

Additional observations from a re-analysis of the deposited data

How the results depend on the processing

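Of the counts of members called, 195 alternative values stayed within 1.5 times the reported count and 13 did not. In the mean over HSPC conditions, 1 member was called with DESeq2 and 1 without a filter, Akr1c12 in both. At 20 weeks against untreated, 2 were called with DESeq2 and 2 with only the compared groups. In B cells against HSPCs, 1 was called with Akr1c12 and Akr1c13 summed, where the pair could count only once. When a library was left out, 1 to 2 were called there. In libraries labelled T cells against HSPCs, 1 was called with the pair summed, 1 with DESeq2, 2 without a filter and 3 with only the compared groups.

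Some changes that were not called turned in sign; the cause was not tested. With a library left out, the genotype change ranged from -0.44 to 0.089 for Akr1c12 and -0.38 to 0.16 for Akr1e1 at 2 weeks, from -2.50 to 0.14 for Akr1c13 and -6.36 to 4.03 for Akr1c12 in B cells, and from -2.01 to 0.46 for Akr1c12 in libraries labelled T cells. The mean change of Net1 ranged from -0.067 to 0.036. The difference in genotype effect ranged from -0.89 to 0.40 for Akr1c12 after doxorubicin and -0.051 to 0.47 for Akr1c13 at 20 weeks. Akr1e1 against untreated ranged from -0.24 to 0.042 at 2 weeks and -0.15 to 0.086 at 20 weeks, where it was -0.0212 with DESeq2, -0.0213 with RLE size factors, -0.0244 without immunoglobulin genes and -0.0295 with only the compared groups.

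Replicate numbers did not pair the samples: deviations of same-numbered libraries correlated between -0.04 and 0.03. With the replicate block, 3 members in place of 4 were called at 2 weeks against untreated, since Akr1c14 had an adjusted p = 0.0525, and Akr1e1 at 20 weeks was at -0.0015; no other count of members changed. With 2 libraries a group, and with Akr1c14, Akr1c18 and Akr1c19 at few counts, depth limits what these 3 genes can show.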
